A study of Homo sapiens with 4 samples.

Results

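The most CpG-dense autosomal cytosines that were measured in all libraries of the series were examined. A CpG position was the plus-strand C of a CpG, and its density was the number of distinct CpG positions, itself included, that any of the 4 libraries listed within 250 bp on either side. A cytosine counted as dense where this number was 31 or more, where it lay on an autosome and where every library had at least 10 reads (context coverage) on it. In total 31751 cytosines at 27750 CpG positions met the rule, out of 396398 autosomal cytosines with that coverage and 2824978 listed cytosines of all coverages. The other 364647 covered autosomal cytosines served for comparison. The cells were H9, a human embryonic stem cell line in long use, and DNA methylation was read by bisulfite sequencing of captured DNA. In basal medium, primed cells were either wild type (WT) or lacked B3GALT5, a galactosyltransferase that builds glycosphingolipids (B3GALT5-/-, here KO). Naive cells were WT in 5iLAF or KO in 2iLAF. With a single library for each of these 4 groups, nothing between groups could be checked against replicates. Genotype and medium cannot be told apart between the naive libraries. Whether the KO line was 1 clone is not given in the sources used here, and the targeted gene was not checked. On the dense cytosines the median coverage was 20 reads in WT primed, 22 in KO primed, 21 in WT naive and 32 in KO naive.

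Methylation of cytosine in CpG dinucleotides is copied at DNA replication by the maintenance methyltransferase DNMT1, and new marks are set by DNMT3A and DNMT3B. Stretches where CpGs stand close together, CpG islands, cover many promoters and mostly lack methylation, while islands of germ cell genes, of imprinted genes on 1 parental allele and of repeated or subtelomeric sequence can carry it. Naive human pluripotent cells are known for lower methylation than primed ones. A library listed a cytosine only where at least 1 read on it was methylated. Islands without any methylated read were therefore not seen, while nearly unmethylated ones could be. Both the levels and the density counted here are those of places with some methylation in at least 1 library.

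Dense stretches next to gene starts are shown for 5 genes that the results below turn on. Each sequence is the 250 bases before the gene's start, 5′ to 3′ on the gene's strand, from RefSeq (GRCh38.p14). The capitals mark CpGs with a dense cytosine. ELAVL4 separated the primed libraries most among regions of 5 or more cytosines, FKBP6 and AURKC are germ cell genes, CAT was lower in both naive libraries, and SVOPL was low in all 4.
ELAVL4: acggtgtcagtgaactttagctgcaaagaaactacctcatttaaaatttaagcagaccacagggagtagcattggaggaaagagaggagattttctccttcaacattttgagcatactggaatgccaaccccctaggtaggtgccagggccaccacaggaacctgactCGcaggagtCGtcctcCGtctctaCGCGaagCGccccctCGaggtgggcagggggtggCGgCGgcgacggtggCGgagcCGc
FKBP6: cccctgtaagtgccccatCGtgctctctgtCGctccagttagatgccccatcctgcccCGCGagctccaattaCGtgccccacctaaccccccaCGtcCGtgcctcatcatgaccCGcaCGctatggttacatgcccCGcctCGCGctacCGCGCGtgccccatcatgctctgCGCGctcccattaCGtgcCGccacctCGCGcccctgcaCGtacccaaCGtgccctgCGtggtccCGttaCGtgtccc
AURKC: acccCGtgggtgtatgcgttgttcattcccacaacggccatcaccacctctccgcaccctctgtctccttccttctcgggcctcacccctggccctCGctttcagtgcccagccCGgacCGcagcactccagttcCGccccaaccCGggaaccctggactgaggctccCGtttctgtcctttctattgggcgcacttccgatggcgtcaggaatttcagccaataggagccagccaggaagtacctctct
CAT: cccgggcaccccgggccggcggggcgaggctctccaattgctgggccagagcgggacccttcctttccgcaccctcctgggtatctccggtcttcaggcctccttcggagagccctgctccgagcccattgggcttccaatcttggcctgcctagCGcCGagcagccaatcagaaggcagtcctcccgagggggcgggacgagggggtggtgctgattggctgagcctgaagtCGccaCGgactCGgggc
SVOPL: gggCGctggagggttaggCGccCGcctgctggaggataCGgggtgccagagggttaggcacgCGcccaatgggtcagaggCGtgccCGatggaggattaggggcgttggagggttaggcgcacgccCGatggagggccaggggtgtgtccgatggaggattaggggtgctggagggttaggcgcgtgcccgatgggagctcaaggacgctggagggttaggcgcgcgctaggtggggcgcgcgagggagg
The matching hg19 position of the ELAVL4 stretch was chr1:50513477-50513726 on the + strand, found by matching the spacing of its CpGs to the listed positions. Those of the others were chr7:72741914-72742163 (+ strand) for FKBP6, chr19:57742141-57742390 (+ strand) for AURKC, chr11:34460231-34460480 (+ strand) for CAT and chr7:138348970-138349219 (- strand) for SVOPL.
Of the CpGs in these stretches, 11 of 14 for ELAVL4, 26 of 26 for FKBP6, 7 of 14 for AURKC, 5 of 18 for CAT and 8 of 23 for SVOPL held a dense cytosine, and the G and C content was 56.4% for ELAVL4 and 69.2% for SVOPL.

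The dense cytosines were highly methylated in the primed state and intermediate in the naive state. Their mean level was 72.8% ± 30.6 in WT primed, 74.6% ± 29.4 in KO primed, 53.3% ± 28.4 in WT naive and 55.9% ± 27.3 in KO naive (SD over 31751 cytosines of 1 library each). Both primed means lay above both naive means. Where 4 levels follow each other below, they are in this order of libraries. In the primed libraries 45.05% (WT) and 46.8% (KO) of the dense cytosines stood at 90% or above (Wilson 95% intervals 44.5 to 45.6% and 46.2 to 47.3%). These shares were 11.6% in WT naive and 9.07% in KO naive. At 20% or below stood 11.2% of them in WT primed, 9.59% in KO primed, 17.4% in WT naive and 14.9% in KO naive. Among the other autosomal cytosines the same low class held 5.23, 4.90, 13.7 and 11.1%, so in each of the 4 libraries it was larger among the dense. Such intervals hold for counting error alone, at each place they are given. Levels near 0 are raised by the listing rule.

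**Figure D1:**
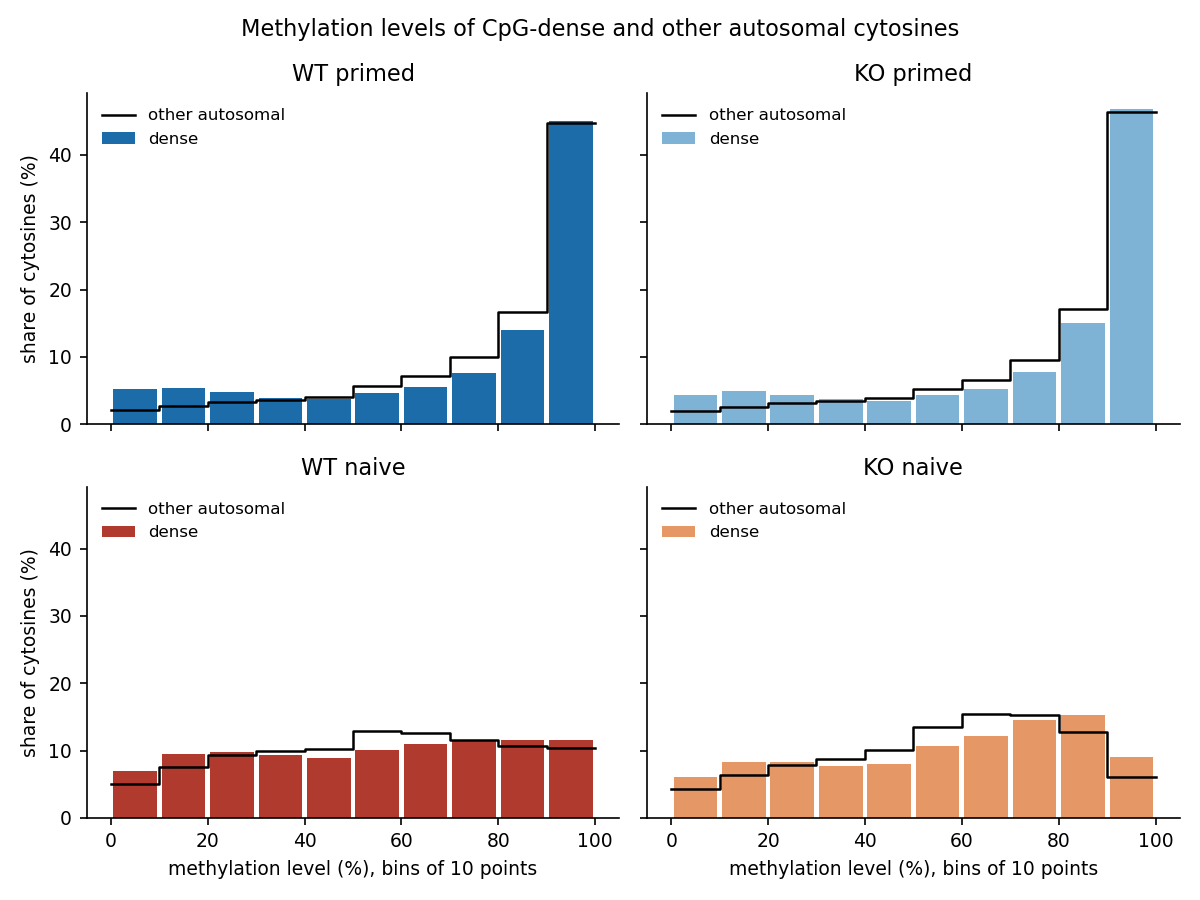
Share of cytosines (y axis, %) by methylation level in bins of 10 points (x axis, %) in each library, with bars for the 31751 dense cytosines and a black line for the 364647 other autosomal cytosines. The top bin holds the largest share in both primed libraries, and in the naive libraries the levels spread over the whole range.

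From primed to naive, the dense cytosines were lower by 19.5 points in WT (SD over cytosines 25.7) and by 18.6 points in KO (SD 21.01). The naive library was the lower one at 77.6% of them in WT and 82.7% in KO, and on each of the 22 autosomes. The other autosomal cytosines were lower by 22.8 points in WT and 22.2 points in KO. The dense ones thus differed less between the states, by 3.35 points in WT and 3.59 points in KO. Taken as 2 pairs, the naive minus primed difference of the dense cytosines was -19.1 ± 0.599 points (SD, n = 2 genotypes), and the exact two-sided permutation test within pairs gave p = 0.5, the smallest p that 2 pairs allow. The gap to the other cytosines was 3.47 ± 0.168 points (SD, n = 2; exact permutation p = 0.5, again the smallest possible). With density counted from the WT primed library alone the gap was 1.35 points in WT and 2.79 points in KO, with a minimum of 5 reads 1.30 and 1.88 points, and with unlisted cytosines filled in at 0 it was 5.88 and 5.35 points.

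The difference between the states shrank step by step with density. In WT it was -23.7 points at 1 to 10 CpGs, -21.8 at 11 to 20, -20.2 at 21 to 30, -19.9 at 31 to 40 and -18.4 at 41 or more. In KO the same classes gave -23.01, -21.4, -19.9, -19.0 and -17.7 points. At 51 or more CpGs (1259 cytosines) the differences were -17.4 points in WT and -15.2 points in KO. The levels themselves had no such order. In WT primed the class means were 78.4, 73.9, 75.02, 73.5 and 70.7%. Around the threshold of the rule, cytosines with 29 to 30 CpGs (n = 8023) had means of 76.05, 77.2, 55.02 and 56.9%, and those with 31 to 32 CpGs (n = 6857) had 74.6, 76.3, 54.1 and 56.3%.

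**Figure D2:**
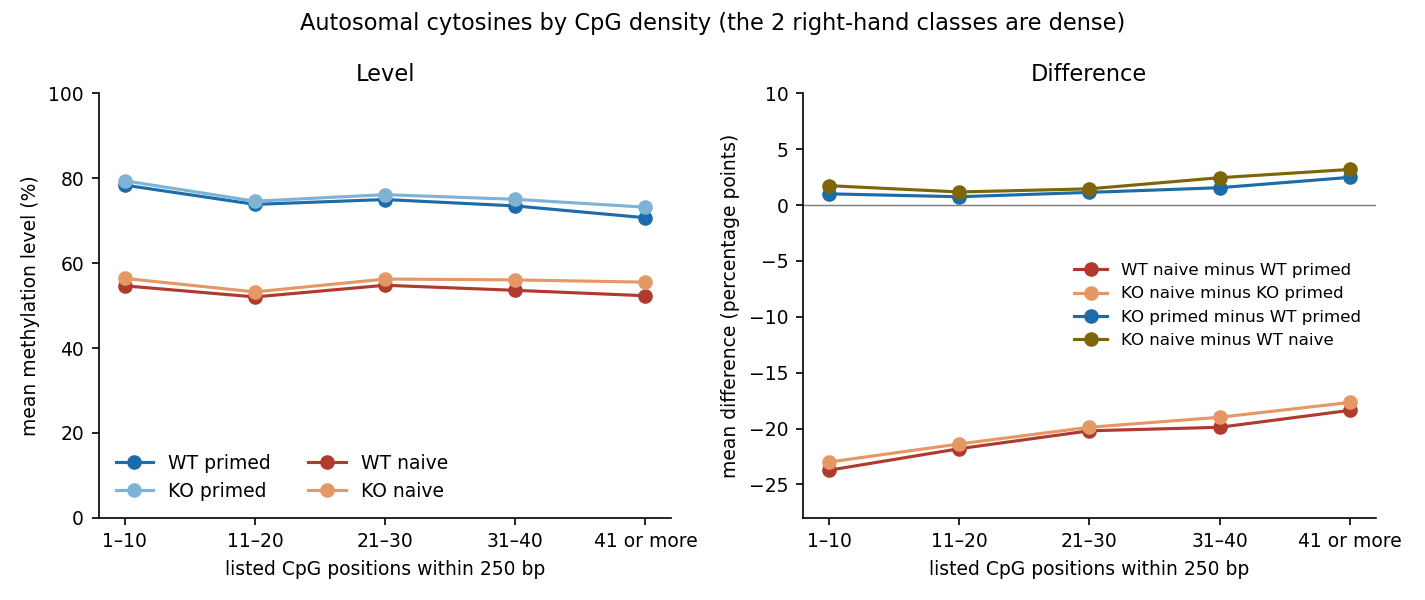
Mean methylation level in each library (left, %) and mean difference of each comparison (right, percentage points) against the number of listed CpG positions within 250 bp, over covered autosomal cytosines. The naive minus primed line climbs from -23.7 to -18.4 points in WT and from -23.01 to -17.7 points in KO, and both KO minus WT lines stay above 0.

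Cytosines of like primed level were set side by side, with bins taken from the other genotype so that the same library was not used for both. Where KO primed stood at 90 to 100%, the WT difference was -24.4 points over 14856 dense and -25.6 points over 169310 other cytosines. Where it stood at 80 to 90%, the values were -24.5 and -27.4 points. For KO, binned on WT primed, they were -21.3 against -23.8 points at 90 to 100% and -21.9 against -25.9 points at 80 to 90%. The dense cytosines thus differed less in these top bins as well. In the lowest bin, 0 to 20%, dense cytosines were 2.04 points higher in WT naive than in WT primed and 5.26 points lower in KO naive than in KO primed, against +0.436 and -4.43 points for the others.

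Each cytosine was also put to a two-sided Fisher's exact test. A call needed 25 points or more of difference and a Benjamini-Hochberg adjusted p, over 411226 cytosines, below 0.05. Such calls speak of the reads in 2 libraries and not of the conditions. In WT, 8022 dense cytosines were called lower in the naive library, 25.3% of them against a background of 26.7% over all cytosines tested. Another 361 were called higher, 1.14% against a background of 0.828%. In KO, 7525 were called lower, 23.7% against 27.4%, and 116 higher, 0.365% against 0.392%. Of the dense cytosines 3966 were called lower in both genotypes, an overlap that was not counted over all cytosines tested. Where shares lay near the background, their side of it turned with the settings. With density counted from WT primed alone, 27.01% were called lower in WT against 26.7%, and 170 (0.627% against 0.828%) were called higher. In KO 55 were then called higher (0.203% against 0.392%). With a minimum of 5 reads 17.6% were called lower in WT against 16.2%. With unlisted cytosines filled in at 0, 942 were called higher in WT (2.41% against 1.31%) and 286 in KO (0.733% against 0.535%). The calls take reads as independent, but the strands of 1 CpG varied more than that: over the dense CpGs with both strands measured and levels of 20 to 80%, the variance between strands was 4.27 times the expected one in WT primed, 4.66 in KO primed, 3.01 in WT naive and 2.90 in KO naive. With reads divided by such a ratio taken over all CpGs, 263 dense cytosines were called lower in WT, 0.828% against 0.342% of all tested. In KO 221 were called lower, 0.696% against 0.489%, and 0 were called higher in either genotype. Both shares of lower calls then lay above the background.

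Dense cytosines at most 250 bp apart were joined to regions, which gave 2758 regions, 1597 of them with 5 or more cytosines. Neighbouring cytosines went together: over 14956 pairs at most 10 bp apart the correlation of their levels was 0.841 in WT primed and 0.784 in WT naive. In KO primed and KO naive it was 0.843 and 0.843. Over 379 pairs 101 to 250 bp apart it was 0.799 in WT primed, 0.853 in KO primed, 0.688 in WT naive and 0.781 in KO naive. Such pairs share reads. Within a region the median SD over cytosines was 10.7 points in WT primed and 14.3 points in WT naive. The SD between region means was 27.5 and 24.2 points. In KO primed and KO naive the SD within regions was 9.49 and 11.3 points, and that between them 26.4 and 24.5 points. A region counted as moved where its mean differed by at least 25 points and at least 80% of its cytosines went that way, a rule of size with no p-value. In WT, 574 of 1597 regions were moved lower in the naive library, 35.9% against a background of 37.6% for the same rule over all autosomal cytosines, and 17 were moved higher (1.06% against 0.493%). In KO, 509 were moved lower (31.9% against 34.6%) and 6 higher (0.376% against 0.234%). With density from WT primed alone, 505 of 1283 regions were moved lower in WT (39.4%) and 6 higher (0.468%). In KO 414 were moved lower (32.3%) and 2 higher (0.156%). Both shares in WT and the share moved higher in KO thus changed sides of the background. The lists shared 362 regions, which is 63.1% of the WT list and 71.1% of the KO list. The same overlap was not counted over the regions of all autosomal cytosines. Of 966 regions at 80% or above in both primed libraries, 601 stood between 20 and 80% in both naive libraries, 154 stayed at 80% or above in both, and 8 were at 20% or below in both.

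**Figure D3:**
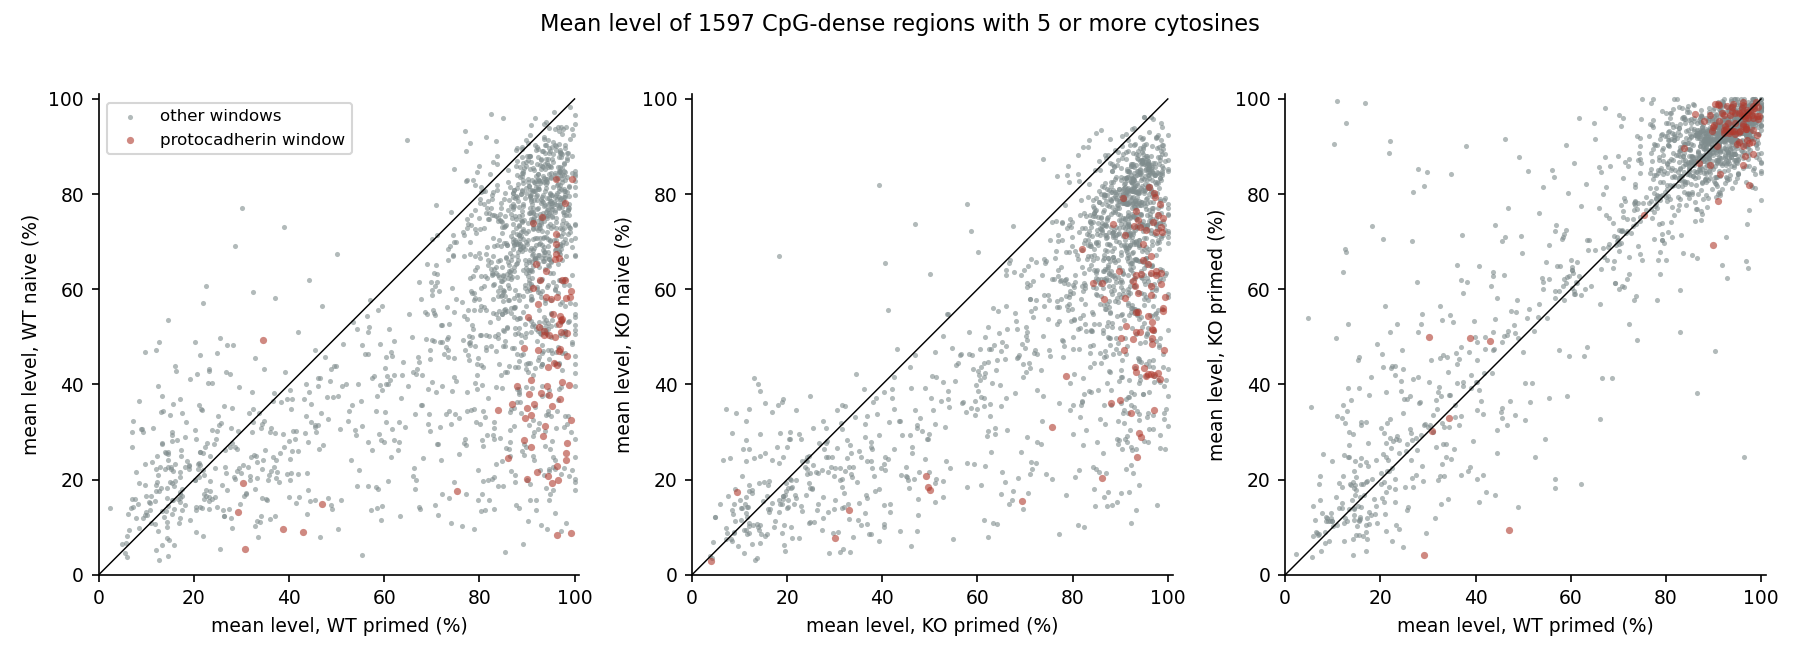
Mean methylation level (%) of the 1597 dense regions with 5 or more cytosines, as naive against primed in WT (left) and KO (middle) and as KO primed against WT primed (right); the line marks equal levels and red points lie in the chromosome 5 window with the protocadherin starts. In the left plot 574 regions and in the middle plot 509 were moved lower, among them 73 and 63 of the 85 red ones.

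The 1 Mb window with the most dense cytosines held starts of the clustered protocadherins of chromosome 5. These are cell adhesion genes of which a neuron uses a few by choice of promoter. The values below are those of the whole window, not of the protocadherin genes alone. The 1 Mb window chr5:140000001-141000000 held 1359 dense cytosines in 95 regions, 4.28% of all dense cytosines. Their mean level was 89.8% ± 18.06 in WT primed, 89.4% ± 18.6 in KO primed, 44.8% ± 24.3 in WT naive and 52.9% ± 21.5 in KO naive (SD over cytosines). The naive libraries were thus lower by 45.1 points in WT and 36.5 points in KO. The other cytosines of the window (n = 1057) were lower by 39.9 and 34.5 points, so here the dense ones differed more, not less, than the others around them. Of the 85 regions with 5 or more cytosines, 73 were moved lower in WT and 63 in KO, and 0 were moved higher in either. In WT primed 77 of the 85 stood at 80% or above and in WT naive 2 did. The mean depth in the window was 25.9 reads per dense cytosine. In 35 of its 95 regions the spacing of 9 successive CpGs was shared with another dense region.

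Only 2 protocadherin starts could be named there from the CpG spacing of RefSeq promoters. PCDHGB5 lay 1400 bp before the nearest dense region, whose 15 cytosines averaged 96.1% in WT primed, 97.3% in KO primed, 69.6% in WT naive and 79.4% in KO naive. PCDHGC3 (gene ID 5098) had a region of 12 cytosines at chr5:140855547-140855658, from 14 to 125 bp after its start, and stood at 47.0% ± 9.25 in WT primed, 9.47% ± 3.08 in KO primed, 14.9% ± 4.81 in WT naive and 17.5% ± 9.56 in KO naive. WT primed was the highest library at PCDHGC3, and the region was moved lower in WT naive but not in KO naive. In the RefSeq gene table (GRCh38.p14) 53 of 55 neighbouring protein-coding genes of this cluster were PCDHA, PCDHB or PCDHG genes, and the remaining regions were not assigned to any of them. Without this window the dense difference between the states was -18.3 points in WT and -17.8 points in KO, and the gap to the other cytosines was 4.44 and 4.35 points.

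**Figure D4:**
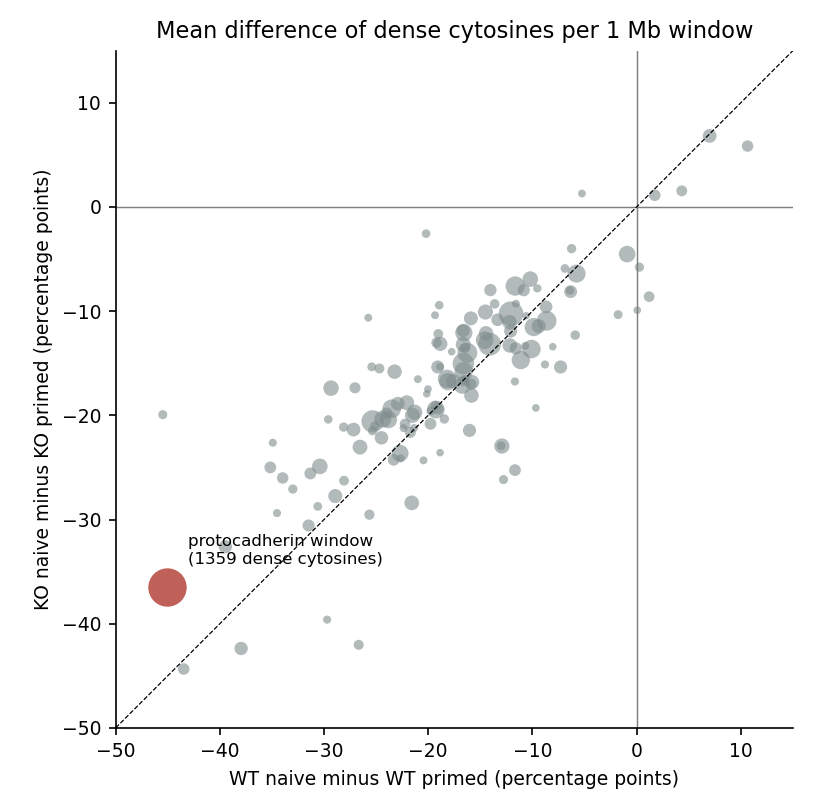
Mean naive minus primed difference of the dense cytosines in 1 Mb windows with at least 50 of them (137 windows), WT on the x axis and KO on the y axis (percentage points), with the area of a point proportional to the number of dense cytosines and a dashed line at equal differences. The chromosome 5 window lies near the low end of both axes, and 129 windows lie below 0 on both.

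Over all 137 windows with at least 50 dense cytosines, the naive library was lower in 130 in WT and in 132 in KO. The dense cytosines differed less between the states than the other cytosines of the same window in 92 windows in WT and in 96 in KO. The window chr14:65000001-66000000, in which the heat shock gene HSPA2 starts, had the lowest WT difference, -45.5 points, beside -19.9 points in KO. At the other end, the window chr12:54000001-55000000 was higher in both naive libraries, with 26.06% in WT primed, 26.1% in KO primed, 36.7% in WT naive and 31.9% in KO naive over 121 dense cytosines. The first window of chromosome 9, chr9:1-1000000, was low throughout, at 10.8, 7.75, 17.8 and 14.6% over 174 dense cytosines. It held 101 cytosines of a region 195 to 1476 bp after the start of FOXD4, a forkhead gene with near copies, where the mean depth was 116 reads and the position is uncertain.

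Gene starts were named by matching the spacing of CpGs. Of 16541 promoters that could be tried, 320 genes (183 protein-coding and 137 lncRNA genes) had a dense region within 2000 bp of the start. The 176 regions near a start with 5 or more cytosines had median levels of 80.7% in WT primed, 85.1% in KO primed, 40.9% in WT naive and 45.8% in KO naive. The 1421 regions without such a match stood at 87.3, 88.4, 57.2 and 63.0%. Of the 176 regions near starts, 84 were moved lower in WT and 78 in KO, and 3 and 0 higher. Of the 1421 others 490 and 431 were moved lower and 14 and 6 higher, and the background over all regions was 37.6 and 34.6% lower. The genes described below were grouped and picked after their values were seen, which gives a description only.

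Genes of germ cells, whose promoter islands are known to be methylated outside the germ line, made up 27 of the matched genes. Their median level was 88.3% in WT primed, 90% in KO primed, 43.7% in WT naive and 55.4% in KO naive. The naive library was lower in 25 of the 27 in WT and in 23 in KO, against 140 and 153 of all 183 matched protein-coding genes, so the KO count was near that of all these genes. Of the 9 with 5 or more cytosines, 7 were moved lower in WT and 7 in KO, and 6 in both. Among all 87 matched protein-coding genes with 5 or more cytosines these counts were 34, 42 and 27. REC8 (gene ID 9985), a subunit of meiotic cohesin, had 9 dense cytosines at chr14:24641189-24641509 around its start with 97.2% ± 3.50 in WT primed, 89.7% ± 10.4 in KO primed, 21.2% ± 16.7 in WT naive and 28.3% ± 7.80 in KO naive. MEIKIN, a protein of meiotic kinetochores, stood at 99.2, 89.6, 30.05 and 32.3% over 11 cytosines in the same order. At both genes each primed library lay above each naive one. MAJIN, which ties telomeres to the nuclear envelope in meiosis, had 60.8% in WT primed, 86.6% in KO primed, 19.8% in WT naive and 16.3% in KO naive over 14 cytosines, with the primed libraries unlike each other.

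The piRNA pathway gene FKBP6 (gene ID 8468) had the largest of these regions, 45 cytosines at chr7:72741820-72742290, which include every CpG of its sequence above. It stood at 88.3% ± 17.0 in WT primed, 89.7% ± 13.4 in KO primed, 57.7% ± 15.4 in WT naive and 64.7% ± 14.3 in KO naive. The meiotic kinase AURKC had 96.0, 88.2, 60.1 and 52.1% over 14 cytosines. FKBP6 and AURKC thus kept more than a 50% level in the naive libraries. SOX30, a transcription factor of spermatids, differed between the naive libraries, with 92.4% in WT primed, 90.7% in KO primed, 30.6% in WT naive and 59.8% in KO naive over 8 cytosines. ZPBP2, an acrosome gene, stood at 71.0, 95.9, 61.4 and 86.4% over 7 cytosines, with both KO libraries above both WT ones. MNS1, needed for sperm flagella, stood at 33.5, 20.8, 7.85 and 10.05% over 11 cytosines, below 50% in each library.

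Zinc finger genes were lower in the naive library in 12 of 12 cases in WT and in KO, against 140 and 153 of the 183 protein-coding genes. Of the 10 with 5 or more cytosines, 4 were moved lower in each genotype, against 34 and 42 of 87, so these counts lay near those of all matched genes. ZNF135 and ZNF248 were moved lower in both. ZNF578 had 92.8% in WT primed, 62.4% in KO primed, 22.1% in WT naive and 47.5% in KO naive over 7 cytosines. ZNF232 was low in all libraries, at 12.4, 10.9, 9.20 and 4.68% over 32 cytosines with a mean of 105 reads. Of 6 imprinted genes only ZNF331 had 5 or more dense cytosines, and it stood at 70.1% in WT primed, 96.6% in KO primed, 59.8% in WT naive and 64.9% in KO naive. An imprinted region with 1 methylated allele would read near the middle of the scale.

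Among matched genes of no group, CAT (gene ID 847), the enzyme catalase, had 18 dense cytosines at chr11:34460386-34460655 with 97.9% ± 4.19 in WT primed, 95.8% ± 6.46 in KO primed, 31.04% ± 10.5 in WT naive and 28.0% ± 8.77 in KO naive. The lowest primed cytosine at CAT was at 80% and the highest naive one at 45.5%, so the states did not overlap there. C5orf63 stood at 98.7, 99.3, 33.4 and 26.4% over 11 cytosines. HLA-G, a class I gene of the trophoblast, had 94.6% in WT primed, 93.6% in KO primed, 15.7% in WT naive and 45.6% in KO naive over 8 cytosines around its start; reads of this gene family can be hard to place. SVOPL, a transporter-like gene, was low in all 4 libraries, at 18.1, 12.6, 14.7 and 17.3% over 15 cytosines.

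**Figure D5:**
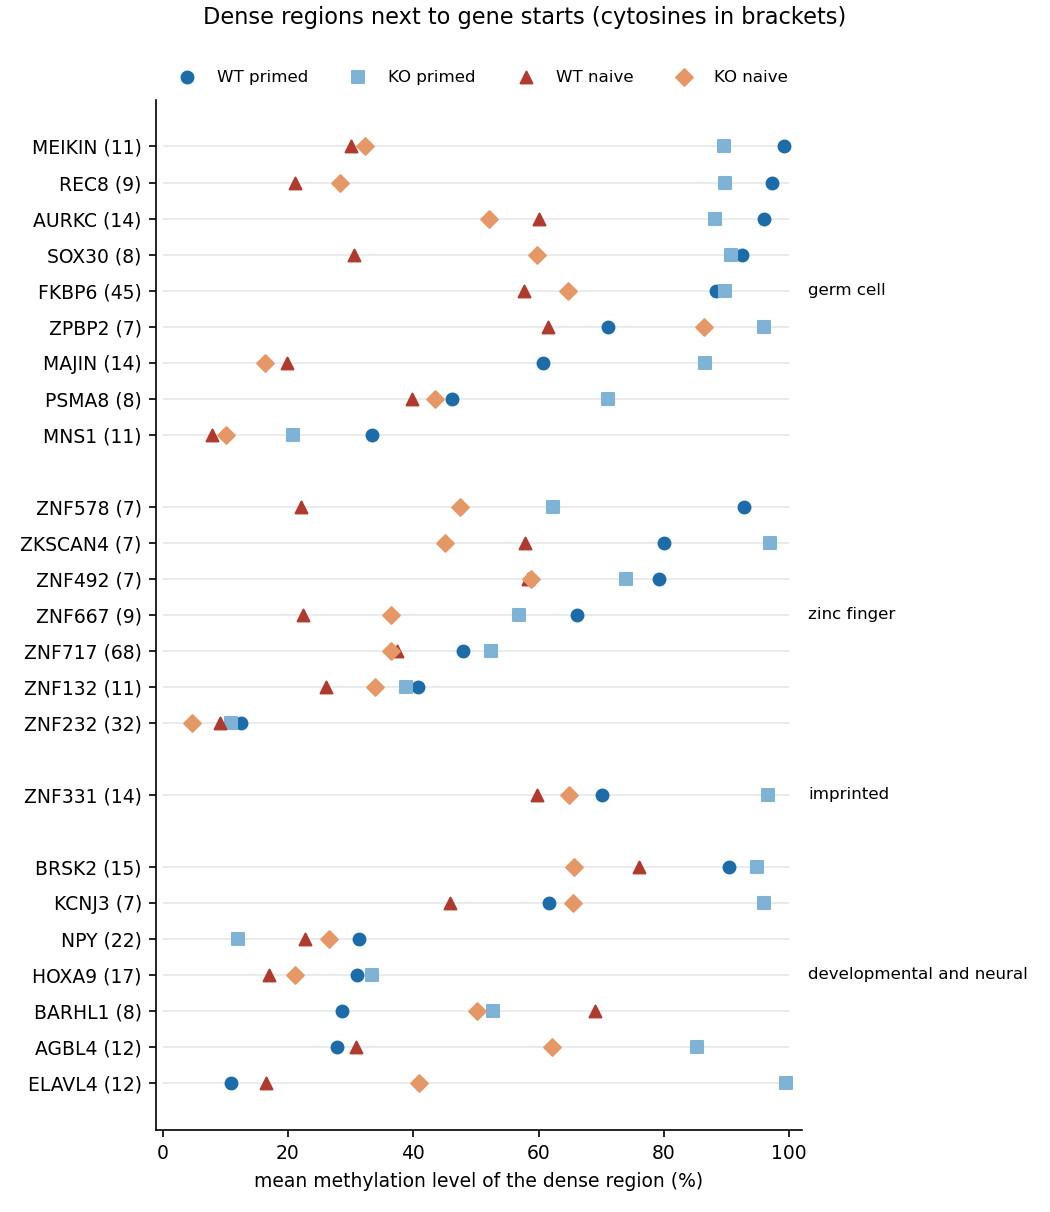
Mean methylation level (x axis, %) of the dense region nearest to the start of 24 genes with at least 7 dense cytosines (number in brackets), in 4 groups made after the values were seen (germ cell, zinc finger, imprinted, developmental and neural), with 1 symbol per library; some of the genes are shown in the plot alone. Germ cell genes such as MEIKIN and REC8 have both primed symbols far right of both naive ones, while at ELAVL4 and AGBL4 KO primed stands alone on the right.

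Between the primed libraries the dense cytosines differed little on average and strongly at few places. KO primed was 1.81 points above WT primed (SD over cytosines 16.6), against 0.974 points for the other autosomal cytosines, and the difference was 2.49 points at 41 or more CpGs and 3.23 points at 51 or more. In KO primed 419 dense cytosines were called higher, 1.32% against a background of 0.603%, and 112 lower, 0.353% against 0.323%. With reads divided by the strand variance ratio the calls were 0 in both directions. Then 236 of the 31751 dense cytosines had an unadjusted Fisher p under 0.05, a smaller share than that threshold. An exact test on so few reads gives less than that share even where nothing differs. Neither this share nor the 0 calls can therefore show that the libraries are alike. Of the 1597 regions, 49 were moved higher in KO primed (3.07% against a background of 1.16%) and 21 lower (1.31% against 0.605%). Density counts CpGs listed in any library. With density from WT primed alone, 25 of 1283 regions were moved higher (1.95%) and 15 lower (1.17%), and 279 cytosines were called higher (1.03%) and 98 lower (0.361%). The 49 had median levels of 26.8% in WT primed, 77.1% in KO primed, 26.5% in WT naive and 34.0% in KO naive, so the median of KO naive lay closer to both WT medians than to that of KO primed. In 7 of the 49 KO naive was also moved higher than WT naive, against 66 of all 1597 regions (4.13%). The background for that move was 2.69%. The 49 were picked for a KO primed level above WT primed, so their KO primed median is high by choice. With 1 library per group the genotype and any other difference between these cultures cannot be told apart.

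In 4 regions WT primed was at 20% or below and KO primed at 80% or above, and the reverse was seen in 0. ELAVL4 (gene ID 1996), an RNA-binding protein of neurons, had the largest difference among the 1597 regions, over 12 cytosines at chr1:50513645-50513732 from 82 bp before to 5 bp after its start. It stood at 10.9% ± 6.50 in WT primed, 99.5% ± 1.604 in KO primed, 16.5% ± 10.9 in WT naive and 40.97% ± 18.4 in KO naive. Single cytosines ranged from 3.85 to 27.6% in WT primed and from 94.4 to 100% in KO primed, with no overlap. CMTM2, a chemokine-like factor gene, had a region of 11 cytosines upstream of its start, at chr16:66612826-66612968, with 12.7% ± 9.76, 94.9% ± 8.91, 48.9% ± 20.5 and 80.6% ± 12.3, with both KO libraries above both WT ones. Chromosome 2 held the other two, chr2:63283898-63284022 with 16.8, 99.2, 10.8 and 34.0% over 10 cytosines and chr2:95692115-95692467 with 10.2, 90.5, 12.7 and 34.0% over 23 cytosines.

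Among all 1597 regions 49 were moved higher in KO primed (3.07%) and 21 lower (1.31%), against a background of 1.16 and 0.605%. Of the 87 matched protein-coding genes with 5 or more cytosines, 9 were moved higher in KO primed and 2 lower. Beside ELAVL4, CMTM2, MAJIN and ZNF331 these 9 were AGBL4, a carboxypeptidase of tubulin, KCNJ3, a potassium channel, TNFRSF18, a receptor of immune cells, CCNP and ZNF528, and the 2 were PCDHGC3 and ZNF578. AGBL4, at chr1:50489445-50489824 close to ELAVL4, stood at 27.9% in WT primed, 85.3% in KO primed, 30.9% in WT naive and 62.1% in KO naive over 12 cytosines. TNFRSF18 stood at 12.5, 68.6, 21.02 and 20.3% over 5 cytosines, with KO primed alone high. Of 14 developmental and neural genes 8 had 5 or more cytosines. Of these, 3 were moved higher in KO primed (ELAVL4, AGBL4 and KCNJ3) and 0 lower. This group was made after the values were seen, and ELAVL4 and AGBL4 are neighbours, so the count is a description only. NPY, a neuropeptide gene, did not pass the rule and stood at 31.4, 12, 22.7 and 26.5% over 22 cytosines. In the opposite direction, chr7:157956881-157957055 had 86.5% ± 5.59 in WT primed, 38.1% ± 16.3 in KO primed, 34.1% ± 18.2 in WT naive and 36.3% ± 11.7 in KO naive over 19 cytosines. WT primed stood apart from the other libraries there.

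By chromosome, the KO minus WT primed difference of dense cytosines was lowest on chromosome 14, at -1.12 points, and highest on chromosome 1, at 7.80. The window chr1:148000001-149000000 held 215 dense cytosines at 41.3% in WT primed, 70.2% in KO primed, 28.3% in WT naive and 47.3% in KO naive. The other 406 cytosines of that window differed by 4.43 points between the primed libraries, the dense ones by 28.97 points. In 4 of its 9 regions the CpG spacing was shared with another dense region and the mean depth was 47.8 reads. Whether reads came from another copy was not tested. Next came chr2:95000001-96000000 with a difference of 27.8 points over 128 dense cytosines and chr1:152000001-153000000 with 24.06 points over 92. Without the chr1:148 and chr1:152 Mb windows the chromosome 1 difference was 5.13 points over 2264 dense cytosines.

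Between the naive libraries KO was 2.65 points above WT (SD over cytosines 18.2), against 1.58 points for the other autosomal cytosines. The difference was 3.20 points at 41 or more CpGs and 5.39 points at 51 or more. In KO naive 360 dense cytosines were called higher, 1.13% against a background of 0.911%, and 159 lower, 0.501% against 0.527%. With reads divided by the strand variance ratio the calls were 0. Then 478 of the 31751 dense cytosines had an unadjusted Fisher p under 0.05, a smaller share than that threshold. With so few reads left this share and the 0 calls decide nothing, as for the primed libraries. Of the regions 66 were moved higher (4.13% against a background of 2.69%) and 22 lower (1.38% against 1.26%). Among regions of 10 or more cytosines the largest gap was at chr10:38691384-38691756, with 83.0% ± 11.6 in WT primed, 90% ± 16.1 in KO primed, 13.7% ± 4.72 in WT naive and 75.6% ± 7.08 in KO naive over 11 cytosines. A region of 13 cytosines 1539 bp after the start of HSPA2, chr14:65008998-65009147, stood at 89.5, 90.5, 27.5 and 71.2%. In both regions WT naive was the only low library. Of the 66 regions moved higher in KO naive, 11 lay in the protocadherin window, as did 1 of the 22 moved lower. That window held 4.28% of the dense cytosines. Its region chr5:140208932-140209042 had 98.3, 96.1, 27.8 and 81.5% over 10 cytosines.

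Among regions of 10 or more cytosines the largest drop in WT was that of chr4:640366-640522, which had 97.2% ± 5.70 in WT primed, 91.8% ± 5.57 in KO primed, 9.25% ± 5.36 in WT naive and 17.5% ± 4.60 in KO naive over 19 cytosines. Gains were few. The largest in WT, chr12:106974512-106974711, had 14.6, 23.9, 53.6 and 24.2% over 11 cytosines, with WT naive alone high. The only region with 10 or more cytosines that was moved higher in KO naive against KO primed was chr5:498198-498295, at 50.05% in WT primed, 46.8% in KO primed, 67.4% in WT naive and 73.6% in KO naive. Some regions held their level. The region chr5:662872-663062 stood at 91.7, 94.1, 96.1 and 91.96% over 15 cytosines, and chr5:42951663-42951817 at 99.0, 95.5, 98.2 and 90.5% over 10. In all, 41 regions stood at 20% or below and 30 between 35 and 65% in all 4 libraries.

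Dense cytosines crowded towards chromosome ends. Of them 32.1% lay in the first 2 Mb of a chromosome's coordinates or within 2 Mb of its last listed cytosine. This held for 11.03% of the other autosomal cytosines. The outer dense cytosines stood at 82.2% in WT primed, 82.6% in KO primed, 64.7% in WT naive and 66.7% in KO naive, and the inner ones at 68.3, 70.8, 47.9 and 50.8%. The outer ones were thus higher in each library. Among the other cytosines the outer ones stood at 80.8, 81.6, 60.2 and 61.8% and the inner ones at 76.5, 77.5, 53.4 and 54.9%.

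Some dense regions shared their CpG spacing. In 168 regions, with 20.5% of the dense cytosines, a run of 9 CpGs had the same spacing as in another dense region, and in 69 of them that region was on another chromosome. Their median depth was 29.1 reads against 20.3 in the others. They differed from primed to naive by -20.5 points in WT and -18.8 points in KO, against -19.2 and -18.6 points in the remaining regions. Of the dense cytosines 6.25% had over 100 reads on average, against 2.10% of the others. The largest region, chr3:75717942-75719240, held 219 cytosines at a mean of 1361 reads and stood at 55.1% in WT primed, 53.9% in KO primed, 36.5% in WT naive and 38.5% in KO naive. How often such reads come from another place was not tested.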

How the data were processed

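Libraries were made from genomic DNA with a methylation capture kit, with a conversion of 99% stated, per the labels' protocols. Positions are in hg19 (GRCh37), which the submitters' processing notes name. For aligner, caller and duplicates, nothing is given in the sources read. Each library came as 1 table that the authors deposited with total, context and methylated coverage as raw read counts and the methylation level as a fraction, per the file headers. No deposited row had 0 methylated reads. Listed cytosines had a median of 7 reads in WT primed, 8 in KO primed, 8 in WT naive and 13 in KO naive.

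Levels were computed as methylated over context reads, each strand on its own, with chromosome Y left out. Fisher's exact test was run on every cytosine with at least 10 reads in all 4 libraries and tested on simulated data. Shares have Wilson 95% intervals. Reads without molecular identifiers are not independent molecules. Work was done in Python 3.11.15 with numpy 2.4.6, pandas 2.3.3, scipy 1.17.1, numba 0.67.0 and statsmodels 0.14.6.

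The members, lists and tests were chosen with earlier results of these data known. The named regions had at least 10 cytosines and were, per comparison, the 5 largest decreases and the 5 largest increases among moved regions, and the 5 with the highest minimum, the lowest maximum and the most cytosines; the text gives a selection. The plan was to name regions by coordinates if no hg19 annotation was used. Gene names, the gene groups and the 1 Mb windows were added after the data were seen. A RefSeq promoter (250 bases before to 50 after a start, GRCh38.p14) was placed where its CpG spacing matched the listed CpGs of its chromosome within 2000 bp of a dense region: at least 15 CpGs matched, at most 1 listed CpG unmatched and at least 60% of its CpGs listed. The same search with promoters of another chromosome gave 0 matches. Not every promoter is in the table. No genome coordinates of GRCh38 were used to place promoters or regions. The order of chromosome 5 genes in the RefSeq gene table (GRCh38.p14) served only to count the neighbours of the protocadherins.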

Additional observations from a re-analysis of the deposited data

Results flagged for a closer look

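Among the regions named by the rule, 10 had differences of at least 10 points in opposite directions in 2 groups. No such difference was tested, since each group held 1 library, and the regions were picked as extremes of these libraries. From primed to naive, WT and KO differed in sign at PCDHGC3 (a second region, chr5:140856118-140856263, +14.9 points in WT and -19.5 points in KO), at chr6:29759947-29760183 (+35.4 and -25.8 points), at chr12:132690140-132690219 (+26.95 and -10.1 points), at CMTM2 (+36.2 and -14.3 points), at chr18:42324588-42324796 (+38.1 and -22.9 points), at chr19:11998735-11998914 (-34.1 and +24.4 points) and at chr22:19136519-19136845 (+21.06 and -47.7 points). For KO minus WT, the primed and the naive libraries differed in sign at chr1:29447721-29447822 (+15.5 points primed and -28.5 points naive), chr2:233216508-233216785 (-25.2 and +12.2 points) and chr4:187125431-187125548 (-13.04 and +16.95 points). The same held at the regions on chromosome 12 (+24.05 and -13.0 points), chromosome 18 (+21.4 and -39.6 points), chromosome 19 (-34.6 and +23.96 points) and chromosome 22 (+34.3 and -34.5 points) given before.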

How the results depend on the processing

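Without replicates no value below has a test over samples, and depth and the listing rule limit what low levels can show. No fit with a replicate block was made, since the labels give no replicate numbers. Only the genotypes paired the states, and that mean difference lay between -21.0 and -15.6 points (exact permutation p = 0.5, n = 2 pairs) under each alternative run for it. Values are given in the order WT naive minus primed, KO naive minus primed, KO minus WT primed and KO minus WT naive, and no difference changed sign under any alternative tried. The mean differences were -21.4, -20.6, 1.57 and 2.32 points with a minimum of 5 reads, and -16.6, -15.6, 1.47 and 2.52 with a minimum of 20. They were -18.4, -17.7, 2.49 and 3.20 points at 41 or more CpGs, -21.3, -19.3, 1.39 and 3.36 with density from WT primed alone, and -15.5, -15.7, 1.94 and 1.82 with unlisted cytosines filled in at 0. From primed to naive they were -19.8 and -19.0 points with at most 100 reads on average, and -19.7 and -18.9 with strands merged. Weighted by reads they were -18.2 and -16.6 points, and 1.2 points for KO minus WT primed. Without the chromosome 5 window, an alternative added after the data were seen, they were -18.3 and -17.8 points and, for KO minus WT naive, 2.41. Cytosines called in either direction were 8383, 7641, 531 and 519 as reported (26.4, 24.1, 1.67 and 1.63%, against 27.5, 27.8, 0.925 and 1.44% of all tested). With a minimum of 20 reads they numbered 3145, 2594, 310 and 320 of 10256 (30.7, 25.3, 3.02 and 3.12%, against 33.9, 30.8, 2.52 and 2.99%). At 41 or more CpGs they numbered 1994, 1808, 162 and 126 of 8350 (23.9, 21.7, 1.94 and 1.51%, against the reported background). At 50 points or more they numbered 4271, 2744, 306 and 241 (13.5, 8.64, 0.964 and 0.759%, against 15.7, 10.5, 0.527 and 0.789%). With reads divided by the strand variance ratio they numbered 263, 221, 0 and 0 (Fisher's exact test, Benjamini-Hochberg). Those from primed to naive were 0.828 and 0.696% of the dense cytosines, against 0.343 and 0.489% of all tested. With 10 reads drawn per cytosine they numbered 1197, 697, 0 and 0. Those from primed to naive were then 3.77 and 2.20%, against 3.76 and 2.32%. KO minus WT primed and naive held 236 and 478 of the 31751 dense cytosines at an unadjusted Fisher p under 0.05 with divided reads. With drawn reads they held 903 and 980. Each of these shares was smaller than 0.05. An exact test on so few reads gives a smaller share even where nothing differs, so these shares and the 0 calls decide nothing. Regions moved (591, 515, 70 and 88 of 1597) numbered 1130, 1051, 123 and 191 of 2843 with a minimum of 5 reads. With a minimum of 20 they numbered 155, 122, 20 and 18 of 504. At 41 or more CpGs they numbered 166, 146, 18 and 24 of 436, and at 10 or more cytosines per region 344, 287, 30 and 39 of 994. With density from WT primed alone 40 of 1283 were moved for KO minus WT primed. The background for regions was computed under the reported setting alone. Fewer cytosines enter under the stricter settings. Other causes were not tested.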

Other observations

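Cytosines without a methylated read are not listed, and some could be placed from their neighbours. An unlisted cytosine was given 0 methylated reads at the coverage of the nearest listed cytosine on the same strand within 25 bp, and at the lower coverage where both sides had one. This raised the dense set to 39044 cytosines, of which 7293 had a value filled in. Their mean levels were 60.9% in WT primed, 62.9% in KO primed, 45.4% in WT naive and 47.2% in KO naive. Among them, 1115 (2.86%) were at 0 in both primed libraries and listed in both naive ones, against 0.878% of the other autosomal cytosines. The opposite, 0 in both naive and listed in both primed libraries, was seen for 213 (0.546%), against 0.473% of the others. Where the former were listed, their median level was 12.8%, so they carried few methylated reads.

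Of the 214112 listed dense autosomal cytosines of any coverage, 10628 were listed in the naive libraries alone (both of them) and 4213 in the primed libraries alone. This was not particular to them, since the counts were 26485 and 17823 at 11 to 20 CpGs within 250 bp and 19850 and 6521 at 21 to 30. At 1 to 10 CpGs the order was the reverse, 25875 naive alone and 34031 primed alone. The dense cytosines lay on the minus strand in 73.5% of cases, against 82.5% of the other autosomal cytosines.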
